A study of Mus musculus with 14 samples.

Results

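Interferon-response genes and the genes of class I antigen presentation were followed across duodenal tumors, the duodenum beside them and wildtype duodenum. The set was a list of 50 mouse genes. The rule that picks their rows uses no group difference, but the list was drawn up with earlier results of these data known. It held 5 sensors of foreign nucleic acid, 6 transcription factors, 2 feedback inhibitors, 19 antiviral effectors, 3 ADP-ribosyl and ubiquitin enzymes, 9 interferon-induced GTPases and 6 genes of class I presentation. A member was measured where the array annotation gave a transcript cluster, the array's unit for one transcript, that gene's symbol alone. This held for 41 of the 50 members, among 19938 genes tested. Isg15, Gbp2, Gbp6, Igtp, Irgm2, Tgtp1, H2-K1 and H2-D1 had only transcript clusters annotated to several genes, Ifi44 was matched to none, and these 9 members are not analysed here.

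Cells sense viral nucleic acid with receptors such as RIG-I and then secrete interferons. Interferon receptors signal through Janus kinases to STAT and IRF transcription factors, which switch on a large set of genes, among them nucleases, RNA-binding proteins and GTPases that attack intracellular microbes. Interferon gamma also raises the machinery that cuts peptides, carries them into the endoplasmic reticulum and loads them on class I molecules for T cells to read, and in the small intestine a steady low level of this response is kept up in the epithelium.

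The measurements were 14 Affymetrix Mouse Gene ST arrays, each of total RNA from one piece of duodenum, from 9 mice on a mixed 129S7/SvEv and C57/BL6 background. The 6 tumors came from the proximal duodenum of mice with the genotype Lrig1-CreERT2/CreERT2, an allele that the labels also give as Lrig1-/-, with CreERT2 inserted in both copies of Lrig1, a transmembrane inhibitor of growth factor receptors that also marks stem cells. Adjacent tissue, labelled as normal duodenal epithelium, came from 5 of those mice with the same labelled genotype, and the 3 wildtype arrays came from wildtype mice described as age-matched. Ages in days or weeks, sexes and treatments were not given in the labels. Tumor replicates 2 to 6 were paired with adjacent replicates 1 to 5 from the same mice, and tumor replicate 1 had no adjacent array. These are pieces of tissue, so fewer cells of a type and less RNA per cell cannot be told apart.

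Some arrays stood apart before any member was examined. Lrig1 itself lay between 8.22 and 9.54 in wildtype tissue, between 6.95 and 7.40 in adjacent tissue and between 7.65 and 8.54 in tumors, on the log2 signal scale used throughout. The signal was low in adjacent tissue. In tumors it was called lower than in wildtype tissue in limma (-0.96 ± 0.24, adjusted p = 0.0162), with overlap: tumor replicates 3 and 4, at 8.54 and 8.29, exceeded wildtype replicate 3. It was higher in tumors than in adjacent tissue in 5 of 5 pairs without overlap (0.88 ± 0.17, adjusted p = 0.00102). That rise went against the loss of the gene, which the labels give for both tissues. Where the probes lie relative to the insertion was not examined, and tumor here means the arrays labelled Lrig1-null tumor. Wildtype replicates 1 and 3 and adjacent replicates 1 and 2 carried transcripts of pancreatic acinar cells, with list means of 13.54 to 14.20 against 8.16 to 8.35 in the other 4 non-tumor arrays. Wildtype replicate 1 had a mean of 13.45 for markers of gastric pit cells, inside the tumors' range of 12.68 to 13.88, where the other wildtype arrays were at 6.98 and 7.86. Markers of enterocytes were high in the normal tissue, at 11.99 to 13.68, as the tissue label would have it. The first letter of the mouse identifier, F or B, also divided the arrays, and the labels do not say what it stands for.

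The promoter sequences of members whose tumor values are described further on are shown here, because many interferon-responsive promoters share short motifs. Promoters were read from RefSeq on the GRCm38.p6 build, 250 bases before to 50 bases after each gene's start, and 38 of the 50 members had an entry. The core of the interferon-stimulated response element was searched as GAAANNGAA, and the site of STAT dimers as TTCNNNGAA, on both strands. In the runs printed in lower case below, capitals mark the matches, and a core on the opposite strand appears as its reverse complement. Neighbouring capitals without a gap are overlapping matches. The first 5 runs show the response element core in the effectors Ifit1 and Oas3, called lower in tumors, in Oas1a, called higher, and in 2 GTPases. The next is the class I light chain gene. The last 2 show the STAT site in Isg20, an effector also called higher in tumors, and in a transcription factor that was lower.
Ifit1, chr19:34640750-34640843, plus strand: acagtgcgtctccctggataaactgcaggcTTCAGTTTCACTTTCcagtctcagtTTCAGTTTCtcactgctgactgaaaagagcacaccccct
Oas3, chr5:120777690-120777764, minus strand: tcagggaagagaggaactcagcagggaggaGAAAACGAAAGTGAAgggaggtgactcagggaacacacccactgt
Oas1a, chr5:120907526-120907575, minus strand: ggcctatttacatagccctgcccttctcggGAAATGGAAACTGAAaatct
Gbp7, chr3:142530254-142530322, plus strand: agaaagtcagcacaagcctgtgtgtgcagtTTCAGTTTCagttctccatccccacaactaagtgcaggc
Irgm1, chr11:48871421-48871480, minus strand: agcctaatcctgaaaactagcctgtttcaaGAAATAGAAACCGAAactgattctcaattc
B2m, chr2:122147518-122147586, plus strand: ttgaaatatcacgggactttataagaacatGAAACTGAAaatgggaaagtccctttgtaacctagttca
Isg20, chr7:78913321-78913389, plus strand: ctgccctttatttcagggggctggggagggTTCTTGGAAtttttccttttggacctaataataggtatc
Irf1, chr11:53769894-53769962, plus strand: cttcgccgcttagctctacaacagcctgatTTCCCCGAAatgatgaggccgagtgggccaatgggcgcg

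The response element core was found in the windows of 23 of 38 members (60.5%), against 2638 of 27025 promoters of all genes (9.76%). It lay in 7 of 7 GTPase promoters, 3 of 3 sensor promoters and 10 of 16 effector promoters, but in 1 of 5 promoters each of the transcription factors and of class I presentation. The STAT dimer site was found in 13 of 38 members (34.2%) against 9.55% of all promoters, and 4 of the 7 GTPase promoters held it as well. CCAAT, the core promoter box that many class I gene promoters carry, was found in 44.7% of members and 41.1% of all promoters, and in 5 of 5 class I presentation promoters. The window of Isg20 held no match to the response element core, and that of Oas1a held both motifs. A match is a description of these letters in this window and not of a bound site. Most members were listed because they respond to interferon, so their promoters are no sample of genes at large.

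**Figure D1:**
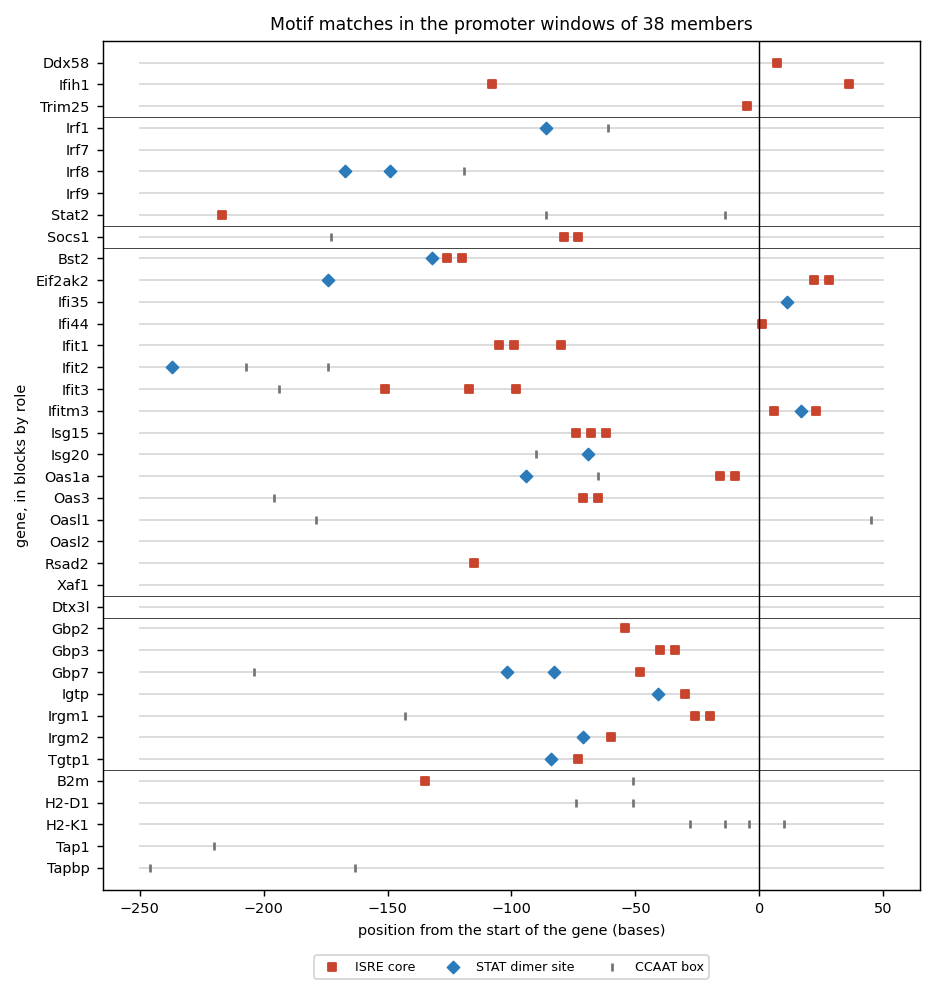
Positions of motif matches (x axis, bases from the start of the gene) in the promoter windows of 38 members (rows, in blocks by role); squares are the response element core, diamonds the STAT dimer site and bars CCAAT. The core is present in all 7 GTPase rows and CCAAT in all 5 class I presentation rows.

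The first comparison asked how tumors differ from the duodenum beside them in the same mice. Most members were lower in tumors: 26 of 41 were called lower and 2 higher, at an adjusted p under 0.05 in limma over all genes. Over all 19938 genes 12.6% were called lower and 19.1% higher, so the members' 63.4% lower stood against a background in which more genes rose than fell. The median log2 difference of the members was -0.58 and that of all genes 0.04. The 13 members called lower by at least 2-fold compare with 3.07% of all genes, and the 1 called higher by as much with 3.3%. Tumor and adjacent arrays did not overlap for 17 members (41.5%) against 17.2% of all genes. In 25 members the tumor was lower in 5 of 5 pairs, against 13.3% of all genes. By role, 4 of 4 class I presentation genes, 4 of 4 GTPases and 6 of 17 antiviral effectors were lower, and differences between roles were not tested.

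**Figure D2:**
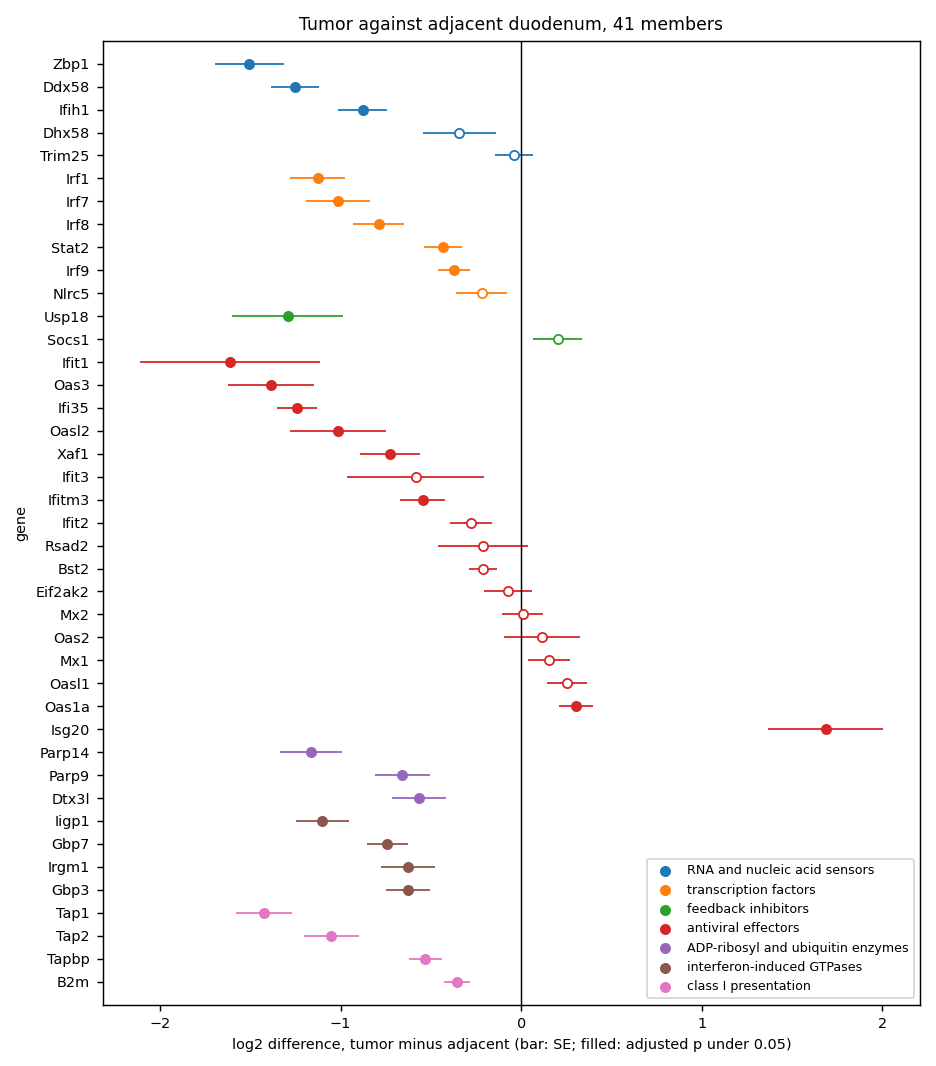
Log2 difference between 6 tumor and 5 adjacent arrays (x axis) for the 41 measured members (y axis), coloured by role. Bars are the SE of the fit over all 14 arrays, and points are filled where the adjusted p was under 0.05. Class I presentation genes and GTPases all lie left of 0, while the antiviral effectors run from -1.61 for Ifit1 to 1.69 for Isg20.

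Class I presentation was lower in every measured gene. Tap1 (transcript cluster 10444244), a subunit of the transporter that carries peptides into the endoplasmic reticulum, was at 10.08, 9.57, 9.91, 10.11 and 10.32 in adjacent replicates 1 to 5 and at 8.39, 8.62 and 8.75 (lowest, median and highest) in the tumors. Every tumor lay below the lowest adjacent array, and the log2 difference was -1.42 ± 0.16 (SE), a 2.68-fold decrease with an adjusted p of 9.81e-06. Its partner Tap2 (10444268) was at 9.37, 9.05, 9.41, 9.78 and 9.84 in adjacent tissue and at 8.29, 8.43 and 8.65 in tumors, a difference of -1.05 ± 0.15 (adjusted p = 9.82e-05). Tapbp, the tapasin that holds empty class I molecules to the transporter, fell less, by 0.53 on the log2 scale (SE 0.09, adjusted p = 0.00038), with tumors at 11.70 to 12.12 and adjacent arrays at 12.19 to 12.58. B2m, the light chain of every class I molecule, lay at 13.57 to 13.73 in adjacent tissue and 13.07 to 13.44 in tumors, the smallest of the 4 decreases at -0.36 ± 0.07 (adjusted p = 0.00153). Its signal lay near the highest value on any array, 14.8. The heavy chain genes H2-K1 and H2-D1 are among the members not analysed here.

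The 4 measured interferon-induced GTPases, which coat and break up vacuoles that hold microbes, were also lower without overlap between the tissues. Iigp1 (10455961) was at 7.24, 6.78, 6.73, 6.63 and 7.35 in adjacent tissue and at 5.44, 5.91 and 6.07 in tumors. That is a 2.15-fold decrease (-1.10 ± 0.15, adjusted p = 5.25e-05), read on a dim probe set: the median of all values on an array was 7.11 to 7.29. Gbp7 differed by -0.74 ± 0.11 (adjusted p = 0.000167), Irgm1 by -0.63 ± 0.15 (adjusted p = 0.00425) and Gbp3 by -0.63 ± 0.12 (adjusted p = 0.00113). Gbp7 reached at most 8.43 in tumors, with a median of 8.14, and lay at 8.65 to 9.23 in adjacent tissue, and Irgm1 was at 7.78 to 8.35 against 8.48 to 8.88. Genes of this family, like the Oas, Ifit and class I families, have near-identical copies, and signal from a copy cannot be separated from the named gene's here.

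Of the 5 sensors, 3 were lower and 2 did not pass. Zbp1 (10490150), which binds nucleic acid in the Z form and can start necroptosis, was at 10.46, 10.22, 9.79, 9.66 and 9.97 in adjacent tissue and at 7.90, 8.56 and 9.15 in tumors. Its log2 difference of -1.51 ± 0.19 (adjusted p = 3.29e-05) was a 2.84-fold decrease, and the smallest pair difference was -1.09. Ddx58 (10512067), which encodes the RNA sensor RIG-I, was nearly constant in adjacent tissue at 10.68, 10.51, 10.76, 10.71 and 10.64 and lay at 9.09, 9.40 and 9.83 in tumors (-1.25 ± 0.13, adjusted p = 7e-06). The long-RNA sensor gene Ifih1 changed by -0.88 ± 0.14 (adjusted p = 0.000175), with adjacent replicate 2 at 9.85 and the other adjacent arrays at 10.60 to 10.62, and tumors at 9.36 to 9.84. Dhx58, a regulator of both sensors, had a difference of -0.34 ± 0.20 (adjusted p = 0.24) and Trim25, a ubiquitin ligase that acts on RIG-I, one of -0.04 ± 0.10 (adjusted p = 0.836). Without tumor replicate 5, the highest of the tumors at 8.49, the Dhx58 difference was -0.51 and passed (adjusted p = 0.0407).

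Among the transcription factors 5 of 6 were lower. Irf1 (10376060), which drives class I and interferon gamma target genes, was at 11.31, 10.92, 11.49, 11.45 and 11.45 in adjacent tissue and at 9.69, 10.24 and 10.98 in tumors. Tumor replicate 1, the array with no pair, overlapped adjacent replicate 2, and the 5 pair differences ran from -1.51 to -0.92 (-1.13 ± 0.15, adjusted p = 5.54e-05). Irf7, needed for amplified type I interferon production, differed by -1.01 ± 0.18 (adjusted p = 0.000507) and Irf8, a factor of myeloid and B cells that interferon gamma also induces, by -0.79 ± 0.14 (adjusted p = 0.000585). Stat2 and Irf9, which act together at the response element, moved less: Stat2 by -0.43 ± 0.11 (adjusted p = 0.00514) and Irf9 by -0.37 ± 0.09 (adjusted p = 0.00485). Nlrc5, the activator dedicated to class I genes, did not pass on its brightest transcript cluster (-0.22 ± 0.14, adjusted p = 0.288), where 17 of its 19 clusters lay below 0 and 6 were called lower, none higher, with differences from -0.79 to 0.17. Irf1 had 2 clusters, both called lower.

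The 2 feedback inhibitors parted. Usp18 (10541307), which strips the ubiquitin-like Isg15 from proteins and blocks the type I interferon receptor, was at 10.09, 9.77, 9.51, 9.51 and 9.84 in adjacent tissue and at 7.33, 8.65 and 9.49 in tumors (-1.29 ± 0.31, adjusted p = 0.0044). Tumors were spread over 2.16, and the highest, at 9.49, lay just under the lowest adjacent arrays at 9.51. Socs1, an inhibitor of Janus kinases, had a difference of 0.20 ± 0.14 (adjusted p = 0.316), with tumors at 8.06 to 8.36 and adjacent arrays at 7.70 to 8.23.

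The 3 ADP-ribosyl and ubiquitin enzymes were lower together. Parp14 (10439249), a mono-ADP-ribosyl transferase, was at 10.43, 9.55, 10.03, 10.11 and 9.99 in adjacent tissue and at 8.01, 8.93 and 9.48 in tumors, without overlap (-1.16 ± 0.17, adjusted p = 0.000114). Parp9 and its ubiquitin ligase partner Dtx3l, which neighbour and are regulated with each other, differed by -0.66 ± 0.15 (adjusted p = 0.00381) and -0.57 ± 0.15 (adjusted p = 0.00869). Both were lower in 5 of 5 pairs, and in both genes tumor replicates 1 and 2 lay inside the range of the adjacent arrays. The Dtx3l call ended without the mouse as a block.

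Antiviral effectors were the mixed group: 6 of 17 were lower, 2 higher and 9 did not pass, with a median of -0.21. Ifi35 (10381408), an interferon-induced leucine zipper protein, was the most even decrease, at 10.57, 10.29, 10.60, 10.69 and 10.68 in adjacent tissue and 9.09, 9.31 and 9.70 in tumors (-1.24 ± 0.11, adjusted p = 2.49e-06). Its 5 pair differences ran from -1.42 to -1.20. Oas3 (10533213), one of the synthases that make the oligoadenylate activator of RNase L, was at 8.45, 8.09, 8.66, 9.07 and 8.92 against 6.82, 7.23 and 7.92 (-1.38 ± 0.24, adjusted p = 0.000412). Oasl2, an RNA-binding relative, differed by -1.01 ± 0.27 (adjusted p = 0.00853), the apoptosis-linked Xaf1 by -0.73 ± 0.17 (adjusted p = 0.00335) and Ifitm3, a membrane protein that blocks virus entry, by -0.55 ± 0.13 (adjusted p = 0.00352). Without the 4 non-tumor arrays that carried acinar transcripts the Oasl2 call ended (-0.81, adjusted p = 0.0895).

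Ifit1 (10462623), which binds viral RNA that lacks the host's cap marks, had the largest decrease and the least stable call. It was at 10.70, 9.57, 10.38, 9.74 and 9.39 in adjacent replicates 1 to 5 and at 9.67, 9.54, 6.49, 6.83, 9.96 and 8.06 in tumor replicates 1 to 6. Tumor replicates 1, 2 and 5 lay within the adjacent range, and replicates 3, 4 and 6 differed from the adjacent tissue of the same mice by -3.08, -3.54 and -1.33. The log2 difference was -1.61 ± 0.50 (adjusted p = 0.0225). The call ended without adjacent replicate 1 (adjusted p = 0.0606), adjacent replicate 3 (adjusted p = 0.0772), tumor replicate 3 (adjusted p = 0.0514), tumor replicate 4 (adjusted p = 0.0679) or tumor replicate 6 (adjusted p = 0.0645). It also ended without the mouse as a block (adjusted p = 0.0751) and without the acinar arrays (adjusted p = 0.134), and over all alternatives the adjusted p ran from 0.00482 to 0.283.

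Isg20 (10554240), an interferon-induced exonuclease that degrades single-stranded RNA, went against the rest. It was at 9.83, 10.30, 8.72, 8.61 and 9.30 in adjacent tissue and at 10.41, 10.79 and 11.86 in tumors, with no overlap and a rise in 5 of 5 pairs. The difference of 1.69 ± 0.32 (adjusted p = 0.000839) was a 3.22-fold increase. Its highest non-tumor values were in wildtype replicate 1 (10.32) and in adjacent replicates 2 and 1, which carried acinar transcripts, and without the acinar arrays the difference was 2.15 (adjusted p = 0.000199). With only the non-tumor arrays that carried them it was 0.98 and did not pass (adjusted p = 0.165). Oas1a, another oligoadenylate synthase, was called higher by 0.31 ± 0.09 (adjusted p = 0.0203), a small difference with pairs from 0.00 to 0.80 and tumors at 8.73 to 9.22 overlapping adjacent arrays at 8.43 to 8.82. That call ended without adjacent replicate 2 (adjusted p = 0.0554), without adjacent replicate 4 (adjusted p = 0.0753) and in the fit of the 5 pairs alone with the mouse as a fixed block (adjusted p = 0.126), which also leaves out tumor replicate 1 and the wildtype arrays. Its neighbour Oas3 moved the other way on the same arrays, and Oas2 had a difference of 0.11 ± 0.21 (adjusted p = 0.762).

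The effectors that did not pass were Ifit2, Ifit3, Rsad2, Oas2, Oasl1, Mx1, Mx2, Bst2 and Eif2ak2. Ifit3 (-0.58 ± 0.38, adjusted p = 0.289) and Ifit2 (-0.28 ± 0.12, adjusted p = 0.0918) passed without tumor replicate 5, with adjusted p of 0.0388 and 0.0184. Bst2, which tethers budding viruses to the cell, had a difference of -0.21 ± 0.08 (adjusted p = 0.0551). It passed without adjacent replicate 4 (adjusted p = 0.0123), and Ifit2 did too (adjusted p = 0.0201). Rsad2, the viperin gene, was at -0.21 ± 0.25 and the RNA-dependent kinase gene Eif2ak2 at -0.07 ± 0.13. The GTPase genes Mx1 and Mx2 had differences of 0.15 ± 0.11 and 0.01 ± 0.11, and Mx2 was among the dimmest members at 5.22 to 5.92 over all arrays.

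**Figure D3:**
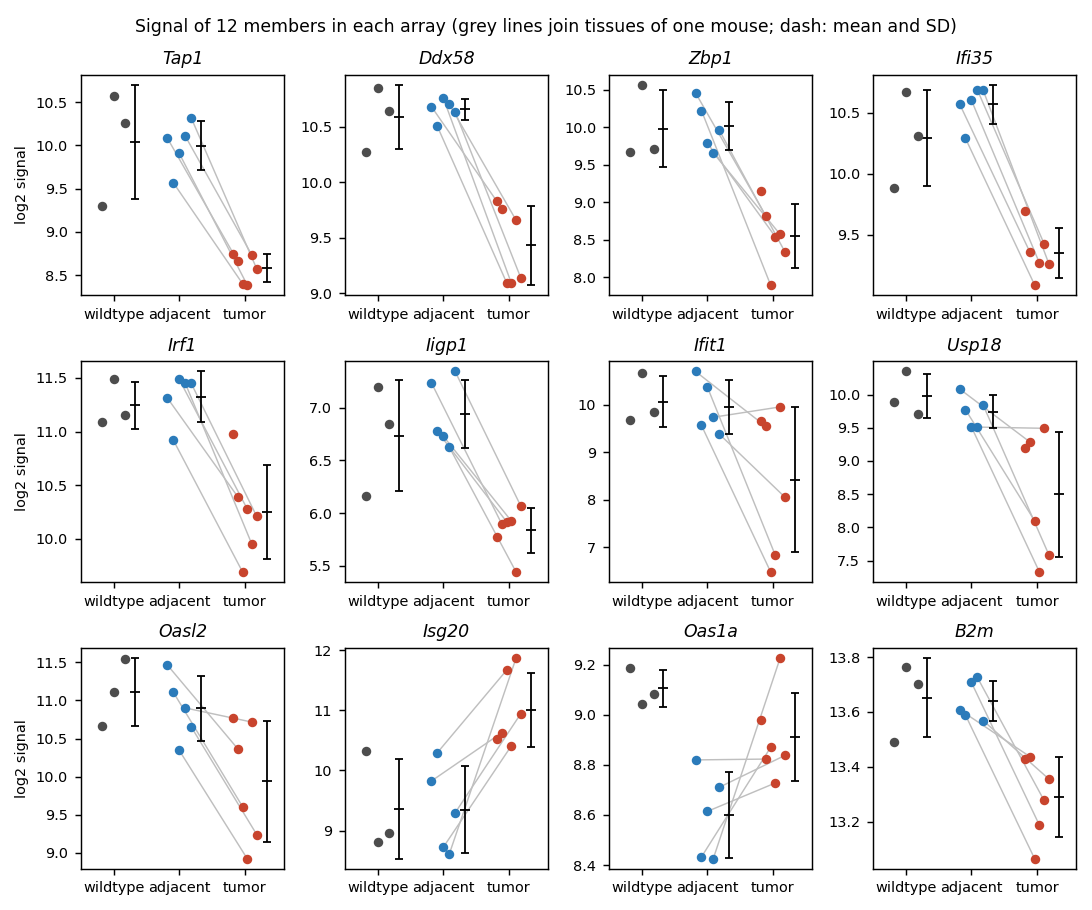
Log2 signal (y axis) of 12 members in each of the 3 wildtype, 5 adjacent and 6 tumor arrays (points), with grey lines joining the tissues of one mouse and a dash with a bar for the group mean and SD. Tap1, Ddx58, Zbp1, Ifi35 and Iigp1 show tumors wholly below adjacent tissue, Ifit1 and Usp18 show tumors spread over 3.47 and 2.16, and Isg20 shows tumors above both other groups.

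Tumors differed among themselves more in some members than in others. The SD over 6 tumors was 1.52 for Ifit1, 0.96 for Ifit3, 0.94 for Usp18, 0.79 for Oasl2 and 0.69 for Rsad2, each above the SD of at least 98% of all genes, and 0.16 for Tap1, 0.15 for Tap2 and 0.15 for B2m, at the 37.4th, 30.9th and 31.1st percentiles. The members most spread among tumors were thus effectors and the inhibitor Usp18, and class I presentation genes varied about as little as a middling gene. The same arrays recurred at the extremes: tumor replicate 1 was the highest tumor for 17 members and tumor replicate 5 for 14, and tumor replicates 4, 3 and 6 were the lowest for 14, 13 and 10. In the pair of tumor replicate 5 and adjacent replicate 4, Isg20 was higher in the tumor by 3.26, Oas2 by 1.23 and Ifit3 by 1.20. Oas1a and Oasl1 were higher by 0.80 each, Socs1 by 0.60, Dhx58 by 0.44 and Ifit2 by 0.31. Smaller rises were those of Rsad2 (0.29), Ifit1 (0.22), Eif2ak2 (0.10) and Bst2 (0.04). In the same pair the class I presentation genes Tap1, Tap2, Tapbp and B2m were at -1.38, -1.13, -0.69 and -0.45, and the effectors Ifi35, Oas3, Xaf1 and Ifitm3 at -1.26, -1.16, -0.46 and -0.38, so effectors lay on both sides of 0.

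Averaged over the 41 measured members, tumor replicates 1 to 6 were at 9.19, 9.09, 8.67, 8.60, 9.12 and 8.70. Adjacent replicates 1 to 5 were at 9.73, 9.28, 9.36, 9.36 and 9.47 and wildtype replicates 1 to 3 at 9.35, 9.68 and 9.39. Every tumor lay below every normal array in this mean. The gap between the highest tumor and the lowest adjacent array was small beside the range of the tumors.

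**Figure D4:**
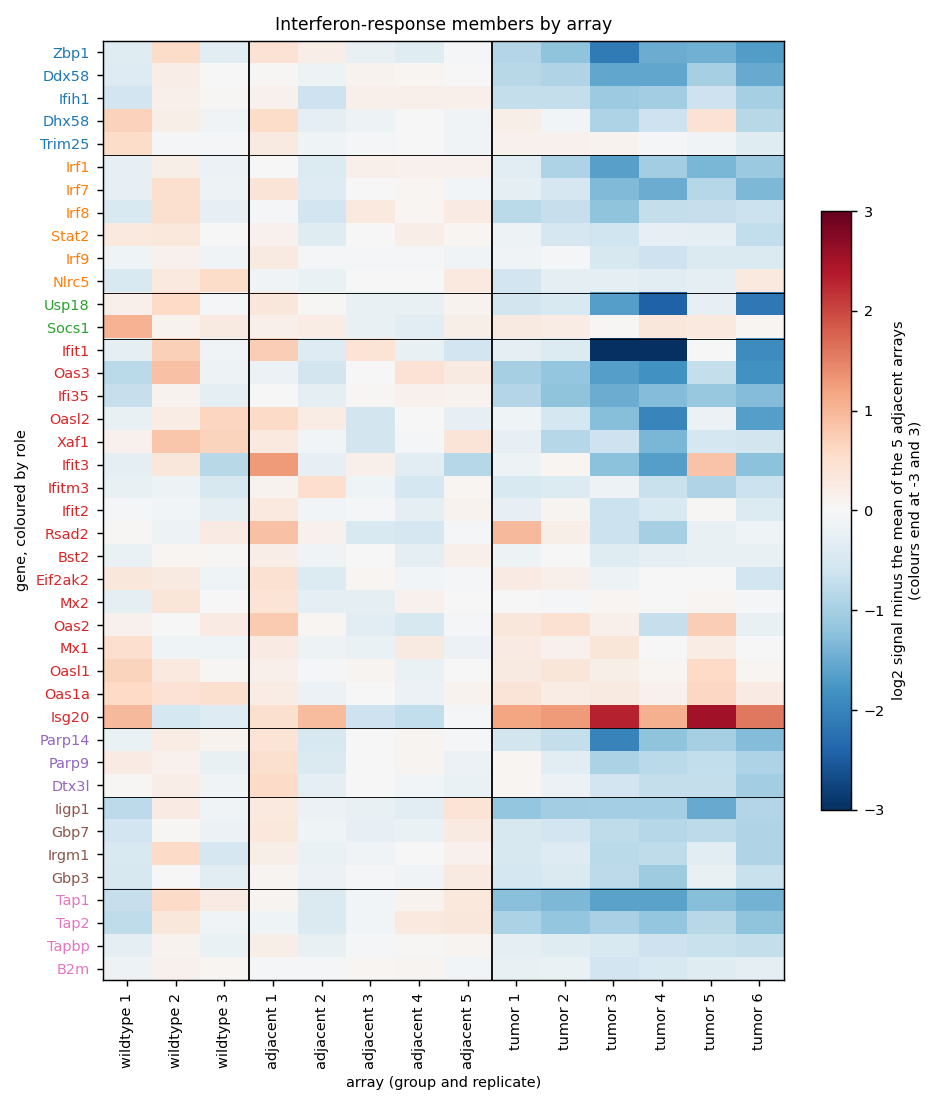
Log2 signal of the 41 measured members (rows, in blocks by role) in each of the 14 arrays (columns), as the difference from the mean of the 5 adjacent arrays (colour, ending at -3 and 3). The tumor columns are blue for most rows, darkest for Ifit1 in tumor replicates 3 and 4, and the Isg20 row is red.

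The calls between tumor and adjacent tissue held in most but not all subsets. Within mice of letter B, 3 tumors against 3 adjacent arrays, 25 members were lower and 1 higher. Within letter F, 3 tumors against 2 adjacent arrays, 8 were lower and none higher. There 28 of the 28 called members kept their direction, but these arrays had entered the fit that called them, so this is no separate support. The median over all measured members was -0.53 in letter F and -0.68 in letter B. The calls over all 19938 genes fell as well, from 2759 lower and 2937 higher in letter B to 615 and 1104 in letter F. The 2 adjacent arrays of letter F are those with acinar transcripts, so these values are not separate from that split. With the mouse as a fixed block over the 5 pairs, 27 of the 28 calls were kept and Oas1a was lost. Leaving out any single array gave 25 to 29 members lower and 1 or 2 higher.

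The other genes of the pathway came from 8 lists, 101 genes of which 83 were measured: 43 were lower in tumors, 7 higher and 33 passed in neither direction, with a median of -0.29. Chemokines and ligands that interferon induces were lower in 8 of 8, with a median of -1.57. Tnfsf10, the death ligand TRAIL, was at 10.20, 9.82, 10.70, 10.49 and 10.45 in adjacent tissue and at 7.49, 7.61 and 8.48 in tumors (-2.52 ± 0.27, adjusted p = 7.2e-06), a 5.75-fold decrease. Il15, a growth factor of intraepithelial lymphocytes, differed by -1.96 ± 0.21 (adjusted p = 8.03e-06). The T cell attractants Cxcl9 and Cxcl11 differed by -1.89 ± 0.22 (adjusted p = 1.85e-05) and -1.84 ± 0.38 (adjusted p = 0.0017).

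Transcripts of the inducible proteasome, which cuts peptides, were lower as well. The inducible proteasome subunits and the proteasome activator were lower in 5 of 5, with a median of -1.01. Psmb8, a catalytic subunit, was at 10.58, 10.26, 10.30, 10.64 and 10.74 in adjacent tissue and 7.93, 8.30 and 8.91 in tumors, a 4.33-fold decrease (-2.12 ± 0.18, adjusted p = 1.63e-06). Psmb9 and Psmb10, the other inducible catalytic subunits, differed by -1.41 ± 0.16 (adjusted p = 1.01e-05) and -1.01 ± 0.13 (adjusted p = 2.92e-05), and the activator subunit Psme2 by -0.83 ± 0.11 (adjusted p = 4.89e-05). Peptide trimming and class I assembly was split, with 2 lower and 2 higher of 5. The trimming peptidase Erap1 (-0.76 ± 0.15, adjusted p = 0.00146) and the peptide editor Tapbpl (-0.66 ± 0.10, adjusted p = 8.96e-05) were lower. The general chaperones of the endoplasmic reticulum Pdia3 (0.47 ± 0.08, adjusted p = 0.000618) and Calr (0.19 ± 0.06, adjusted p = 0.0244) were higher.

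Other class I and class I-like genes were lower in 4 of 8 and higher in 1. H2-Q2 differed by -2.05 ± 0.17 (adjusted p = 1.58e-06), H2-Q4 by -1.03 ± 0.15 (adjusted p = 8.21e-05) and H2-T10 by -0.68 ± 0.18 (adjusted p = 0.00828), all in a family where copies are nearly identical. Mr1, which presents microbial vitamin metabolites, was higher by 0.80 ± 0.16 (adjusted p = 0.00109). Among 24 further interferon-induced genes 14 were lower and 2 higher, with a median of -0.53. Ido1, which degrades tryptophan, was at 9.52, 9.91, 9.95, 10.18 and 10.17 in adjacent tissue and 6.87, 7.05 and 7.56 in tumors, a 7.17-fold decrease (-2.84 ± 0.25, adjusted p = 2.33e-06). The nuclear body gene Sp100 differed by -1.92 ± 0.19 (adjusted p = 4.48e-06), the GTPase gene Gbp8 by -1.49 ± 0.10 (adjusted p = 3.83e-07) and Herc6, the mouse ligase for Isg15, by -1.32 ± 0.26 (adjusted p = 0.00123). Ifitm2 (0.69 ± 0.07, adjusted p = 4.84e-06) and Lgals3bp (0.35 ± 0.08, adjusted p = 0.00532) were higher.

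Of 13 measured interferon and receptor genes 2 were lower (15.4%, near the 12.6% of all genes) and none higher: Ifnlr1, the receptor chain for interferon lambda (-0.54 ± 0.11, adjusted p = 0.00144), and Ifnar2, a chain of the type I receptor (-0.45 ± 0.13, adjusted p = 0.0154). Il10rb, which pairs with Ifnlr1, was at -0.24 ± 0.16 (adjusted p = 0.283) and the interferon gamma receptor chain Ifngr1 at 0.25 ± 0.10 (adjusted p = 0.0786). In the signalling list 2 of 9 were lower (22.2%) and 1 higher (11.1%, against 19.1% of all genes), with a median of -0.03. Jak2 differed by -0.91 ± 0.14 (adjusted p = 0.000194) and the phosphatase gene Ptpn6 by -0.46 ± 0.08 (adjusted p = 0.000426). The inhibitor Socs3 was higher by 0.84 ± 0.13 (adjusted p = 0.000235), and Pias1 was at -0.16 ± 0.10 (adjusted p = 0.256). In the remaining list of nucleic acid sensing 6 of 11 were lower and 1 higher. The kinase gene Tbk1 differed by -1.13 ± 0.12 (adjusted p = 7.09e-06), the endosomal receptor gene Tlr7 by -0.48 ± 0.10 (adjusted p = 0.00172) and the adaptor gene Mavs by -0.47 ± 0.10 (adjusted p = 0.00185). Aim2, a cytosolic DNA sensor that opens the inflammasome, was the exception at 1.69 ± 0.16 (adjusted p = 3.86e-06), with tumors at 8.55 to 9.90 and every normal array at 7.42 to 7.95.

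**Figure D5:**
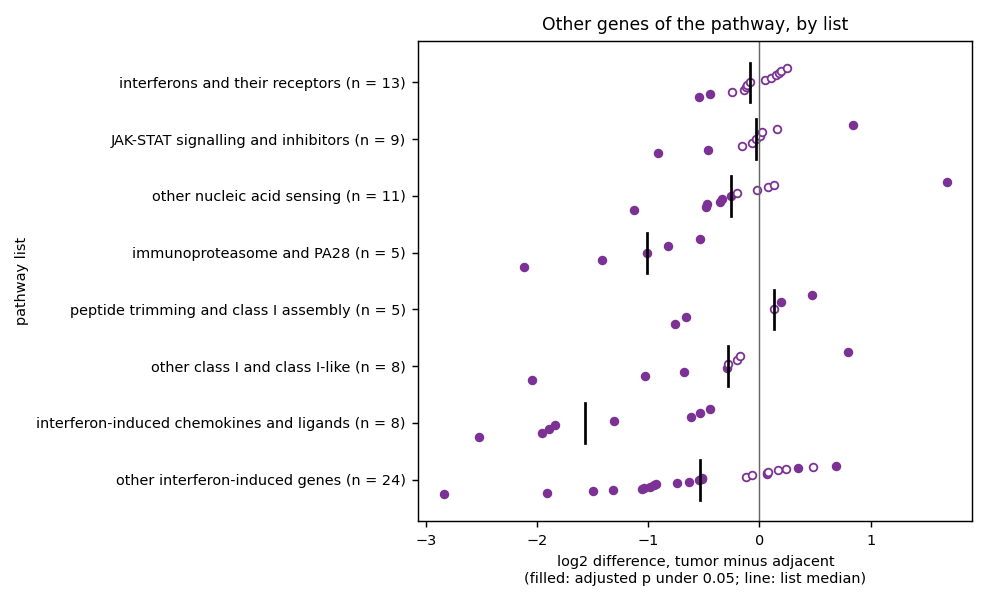
Log2 difference between tumor and adjacent tissue (x axis) for 83 measured genes of 8 pathway lists (rows; points, filled where the adjusted p was under 0.05; black line, median of the list). Chemokines and ligands and the inducible proteasome lie wholly below 0, with medians of -1.57 and -1.01, while interferons and their receptors centre near 0 with a median of -0.09.

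Markers of several cell types also differed between tumor and adjacent tissue, where 12.6% of all genes were lower and 19.1% higher. T and NK cell markers were lower in 14 of 15, with list means of 6.69 to 7.42 in tumors, 8.32 to 8.69 in adjacent tissue and 7.81 to 8.59 in wildtype tissue. Enterocyte markers were lower in 13 of 14, at 10.47 to 10.92 in tumors, 12.57 to 13.68 in adjacent and 11.99 to 13.56 in wildtype tissue. Macrophage and dendritic cell markers were lower in 10 of 16 (7.46 to 7.74 against 7.89 to 8.34 in adjacent and 7.83 to 7.92 in wildtype tissue) and B and plasma cell markers in 6 of 9 (7.45 to 8.38 against 8.27 to 8.78 and 8.22 to 8.46). Gastric pit markers were higher in 8 of 8 and mast cell markers in 7 of 10, at 7.75 to 8.61 in tumors and 6.16 to 6.99 in adjacent tissue. In wildtype replicates 1 to 3 the mast cell mean was 8.02, 6.28 and 6.11, the first of them inside the tumors' range. Pan-epithelial markers were higher in 4 of 7 and lower in 1, with list means of 12.83 to 13.12 in tumors and 12.50 to 12.72 in adjacent tissue. Fibroblast markers were higher in 5 of 8, neutrophil markers in 4 of 8 and endothelial markers in 2 of 8, and acinar markers were lower in 2 of 12. The part of these cell types in the members' differences was not tested. In tumor replicates 1 to 6 the T and NK mean was 7.42, 7.19, 6.90, 6.86, 6.69 and 6.79, and its relation to the members over the tumors was not tested.

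The second comparison set the tumors against duodenum of mice with intact Lrig1. Again more members were lower: 16 of 41 were called lower and 1, Isg20, higher, where 4.48% of all genes were lower and 9.65% higher. The median of the members was -0.49 and that of all genes -0.00, and 39 of the 41 lay below 0. Tumor and wildtype arrays did not overlap for 16 members (39.0%) against 13.6% of all genes, while 7 members were lower by at least 2-fold against 1.7%, and 1 was higher by as much against 2.2%. These values share the tumor arrays with the first comparison and are not a second sample of it.

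By role, 3 of 5 sensors, 4 of 6 transcription factors, 3 of 4 class I presentation genes, 1 of 2 feedback inhibitors, 1 of 3 ADP-ribosyl and ubiquitin enzymes, 1 of 4 GTPases and 3 of 17 effectors were lower. Tap1 was at 9.30, 10.57 and 10.25 in wildtype replicates 1 to 3, all above the highest tumor at 8.75 (-1.46 ± 0.22, adjusted p = 0.00107), and Tap2 was at 8.73, 9.82 and 9.38 (-0.86 ± 0.21, adjusted p = 0.0161). Zbp1 was at 9.67, 10.57 and 9.71 (-1.43 ± 0.27, adjusted p = 0.00365) and Ddx58 at 10.28, 10.85 and 10.64 (-1.16 ± 0.19, adjusted p = 0.00152). In these 4 genes wildtype replicate 1, the array with gastric transcripts, was the wildtype array nearest the tumors.

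Irf1 differed by -0.998 ± 0.21 (adjusted p = 0.00767) and Irf7 by -0.99 ± 0.25 (adjusted p = 0.0181). Usp18 differed by -1.48 ± 0.43 (adjusted p = 0.0335), Parp14 by -1.17 ± 0.24 (adjusted p = 0.0059), Iigp1 by -0.90 ± 0.21 (adjusted p = 0.0115) and Oas3 by -1.33 ± 0.34 (adjusted p = 0.017). Isg20 was at 10.32, 8.82 and 8.96 in wildtype tissue, below the lowest tumor at 10.41 (1.64 ± 0.45, adjusted p = 0.0249). The largest members of their groups that did not pass were Parp9 (-0.66 ± 0.22, adjusted p = 0.0556), Gbp7 (-0.49 ± 0.16, adjusted p = 0.0566) and Socs1 (-0.28 ± 0.19, adjusted p = 0.418). Ifit1 was at 9.68, 10.68 and 9.85 in wildtype tissue and its difference of -1.64 ± 0.70 did not pass (adjusted p = 0.149). Oas1a, at 9.19, 9.04 and 9.08, lay at or above most tumors, with a difference of -0.19 ± 0.13 (adjusted p = 0.394) in the direction opposite to that against adjacent tissue.

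With 3 wildtype arrays single arrays weighed heavily. Without wildtype replicate 2 only 6 members were called, Ddx58, Ifi35, Parp14, Tap1, Xaf1 and Zbp1, and without wildtype replicate 3 there were 8, those 6 with Irf1 and Stat2. Without wildtype replicate 1, 21 members were called, the 17 above among them. The members' median was -0.44 without wildtype replicate 2, -0.64 without replicate 3 and -0.57 without replicate 1. That of all genes was 0.01, 0.03 and -0.03. Fewer wildtype arrays enter these fits, and the calls over all genes in them are not given here, so the counts of members are not set against a background. B2m and Usp18 also lost their calls without tumor replicate 3 or tumor replicate 4, and B2m without tumor replicate 5. Within letter B 20 members were lower and 1 higher, where 1346 of all genes were lower and 2354 higher. Letter F had 1 wildtype array, too few for a count of calls. This was wildtype replicate 1, which carried gastric pit and acinar transcripts. Against it the median difference was -0.30 for the members and 0.08 for all genes. Of the pathway lists 23 genes were lower and 6 higher. Psmb8 differed by -1.87 (adjusted p = 0.000575), Ido1 by -2.15 (adjusted p = 0.00182), H2-Q2 by -1.75 (adjusted p = 0.000695) and Aim2 by 1.83 (adjusted p = 0.000351).

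The third comparison asked whether the loss of Lrig1 was marked by a changed response in tissue that was not tumor. No member was called in limma, and none of all 19938 genes was. Lrig1 itself was not called in this fit, though adjacent and wildtype arrays did not overlap for it (-1.84 ± 0.25, unadjusted p = 2.56e-06, adjusted p = 0.0511). The median of the members was -0.00, and 2 members, Socs1 and Oas1a, had an unadjusted p under 0.05, where 2.8% of all genes did. Oas1a was the only member whose groups did not overlap (2.12% of all genes), at 8.43 to 8.82 in adjacent and 9.04 to 9.19 in wildtype tissue (-0.50 ± 0.13, unadjusted p = 0.00224, adjusted p = 0.998). Socs1 was at 9.07, 8.13 and 8.29 in wildtype tissue and at 7.70 to 8.23 in adjacent tissue (-0.48 ± 0.20, unadjusted p = 0.0306, adjusted p = 0.998). The p does not show that the tissues were alike: SEs of the members ran up to 0.73, for Ifit1.

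The named members of each role were spread about 0 in that comparison. Among sensors and factors Dhx58 was at -0.23 ± 0.29, Trim25 at -0.14 ± 0.15, Stat2 at -0.19 ± 0.15 and Nlrc5 at -0.15 ± 0.20. Usp18 was at -0.19 ± 0.44 and Xaf1, a 1.43-fold difference, at -0.51 ± 0.24. The GTPase genes Gbp3 (0.27 ± 0.18) and Gbp7 (0.25 ± 0.17) and the class I genes Tap2 (0.19 ± 0.22) and Tapbp (0.15 ± 0.13) lay on the other side, and Parp14 (-0.01 ± 0.25) and Dtx3l (-0.00 ± 0.22) at 0. Of the 83 pathway list genes none was called, and 32.5% lay below 0 against 52.5% of all genes. List medians ran from -0.03 for interferons and their receptors to 0.39 for induced chemokines and ligands. The T and NK marker list had a median difference of 0.49 in the same comparison, with adjacent means of 8.32 to 8.69 overlapping wildtype means of 7.81 to 8.59, and its part in these values was not tested.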

How the data were processed

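The deposited values were log2 signals per transcript cluster, made by the authors from the array scans. The submitters' processing notes name Affymetrix Expression Console 1.1 and the mm9 build, and the normalization is not given in the sources used here. Of 35556 transcript clusters, 21789 were annotated to a single gene symbol, 1621 to several and 12146 to none. The brightest cluster by mean over all arrays stood for each gene, which left 19938 genes.

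Group means were fitted over all 14 arrays with limma 3.58.1 in R 4.3.3, with the mouse as a random block (correlation 0.334), and p-values were adjusted by Benjamini-Hochberg over all genes. The fit was tested on simulated data. The mouse identifiers in the labels pair tumors 2 to 6 with adjacent tissue. Deviations from group means correlated at 0.225 on average within a mouse (range -0.030 to 0.395) and at -0.054 between mice, with an exact one-sided permutation p of 0.00833, the smallest that 120 pairings allow. The named genes were those with the largest differences in each role or list, up to 4, with every member called higher against adjacent tissue, and others are named where a count or a lost call turned on them. The members and lists were chosen with earlier results of these data known. Each array is 1 piece of tissue, and the number of arrays limits the precision. Probe sets differ in brightness, so levels were compared between arrays and never between genes. Alternatives concerned scaling, row choice, block, letter, acinar arrays, weights and single arrays, each changed alone, except that the fixed mouse block also left out the unpaired arrays and that an intensity trend and a robust prior were set together.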

Additional observations from a re-analysis of the deposited data

Results flagged for a closer look

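In 4 of 82 tests of a member within the tumor or adjacent group, one array stood far from the others by Dixon's criterion, where chance gives about 1 in 20. Ifih1 in adjacent replicate 2 was at 9.85, and the other adjacent arrays were at 10.60 to 10.62. Irf9 in adjacent replicate 1 was at 10.09, and the others were at 9.70 to 9.76. Irf8 in tumor replicate 3 was at 8.85, below the other tumors at 9.25 to 9.40. Nlrc5 in tumor replicate 6 was at 10.22, above the other tumors at 9.35 to 9.64.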

How the results depend on the processing

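No call of a member reversed under any alternative run. Between tumor and adjacent tissue, Ddx58, Gbp7, Ifi35, Iigp1, Oas3, Tap1, Tap2 and Zbp1 kept their calls under all of them. Leaving out single arrays gave 25 to 29 members lower and 1 to 2 higher against adjacent tissue, with 39 to 43 pathway genes lower and 6 to 8 higher. Against wildtype tissue it gave 6 to 21 members lower and 0 to 1 higher, with 11 to 31 pathway genes lower and 2 to 5 higher, and between the normal tissues 0 throughout. The calls over all genes in these fits are not given here. Quantile normalization left 1 member higher against adjacent tissue. With array weights 4 members and 11 pathway genes were higher against adjacent tissue, 29 members and 45 pathway genes were lower and 11 pathway genes higher against wildtype tissue, and 3 members and 3 pathway genes were lower in adjacent than in wildtype tissue; over all genes the weights gave 3141 lower and 4833 higher against adjacent tissue, 4389 lower and 5136 higher against wildtype tissue, and 1381 lower and 310 higher between the normal tissues, where 2509 and 3804, 893 and 1924, and 0 and 0 were called without them. Within letter F, 8 members were lower and 0 higher against adjacent tissue, with 16 pathway genes lower and 3 higher. Over all genes 615 were lower and 1104 higher in that fit. Against the 1 wildtype array of letter F the median of the members was -0.30 and that of all genes 0.08. That array was wildtype replicate 1, which carried gastric pit and acinar transcripts. Within letter B, 1 member was higher against adjacent tissue. With only the non-tumor arrays that carried acinar transcripts, 12 members were lower and 0 higher against adjacent tissue and 4 lower and 0 higher against wildtype tissue. Of the pathway genes 24 and 8 were lower and 3 and 2 higher. Over all genes 990 were lower and 1191 higher against adjacent tissue in these fits, and 253 and 251 against wildtype tissue. Fewer arrays enter them. Without those arrays, and with the tumor and wildtype groups fitted alone, 2 pathway genes were higher against wildtype tissue. With the mouse as a fixed block over the 5 pairs alone, 26 members were lower and 1 higher, and the paired fit changed no call of a member but that of Oas1a. Asking also for a 2-fold difference left 13 members lower and 1 higher and 17 pathway genes lower and 1 higher against adjacent tissue, and 7 members lower, 9 pathway genes lower and 1 higher against wildtype tissue. Counting promoter matches only before the start lowered the number of members with the response element core from 23 to 19 of 38 and the share with the STAT site from 34.2% to 28.9%. Apart from shares set by a setting's own construction, the cause of these shifts was not tested. Members near the dim end, such as Mx2, give little room to see a decrease.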
